A study of Mus musculus with 8 samples.

Results

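Valproic acid (VPA) was compared with control medium in organoids of mouse small intestine, epithelial cultures that grow from crypt cells in Matrigel and form crypts of their own. The comparison used the 2 arrays of organoids kept for 6 days with 1 mM VPA and no CHIR99021, and the 2 arrays of organoids kept for the same time without either compound. These were 4 of the 8 arrays of the study. The other 4 were of organoids given 3 µM CHIR99021, which inhibits the kinase GSK3, and of a combination of 3 µM CHIR99021 with 1 mM VPA. Every condition was measured once in each of 2 independently established wild-type lines, here line 1 and line 2, and the 4 arrays of a line shared 1 slide, so that line and slide cannot be told apart. The sample was always labelled with Cy5 and hybridised against Cy3-labelled control RNA from its own line, and dyes were never swapped. A control array thus carried control RNA in both dyes, and its spread leaves out differences between control cultures.

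VPA, a short branched fatty acid, inhibits histone deacetylases, the enzymes that take acetyl groups off histone tails, and acetylated chromatin is in general more open to transcription. As a fatty acid it is also activated to its coenzyme A ester, and in rodent liver it is known to raise genes of fatty acid oxidation that answer to the nuclear receptor PPARα. In the crypt, Notch signalling and a cascade of transcription factors divide the progeny of stem cells into absorptive enterocytes and the secretory goblet, Paneth, enteroendocrine and tuft cells.

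Each value below is a log2 ratio of Cy5 over Cy3, and values of a pair are those of line 1 and then line 2. The effect of VPA is the VPA ratio minus the control ratio of the same line, given as the mean of the lines ± SE from limma's fit over all 8 arrays, with 2 arrays per group. A gene is said to have risen or fallen where its limma p, adjusted by Benjamini-Hochberg over all 19262 genes tested, was under 0.05. The arrays were alike in the share of spots well above background in Cy5 (60.6% to 64.6%), with 0 saturated spots. Outlier flags, which lay on 104 to 209 spots per array, led to those spots being left out. With flagged spots kept, the fitted background noise of the CHIR99021 array of line 1 had an SD of 192 in Cy5 and 905 in Cy3. Without them it was 1.14 and 1.02. All 16 epithelial identity markers on the list used were measured. Epcam and Cdh17, adhesion molecules of intestinal epithelium, read 0.02 ± 0.10 and 0.02 ± 0.16. The list ran from -2.51 (Chga) to 2.27 (Fabp2, with a limma adjusted p of 0.0524, or 0.0177 with a replicate block), and 4 of its members fell (Krt8, Krt18, Cdx1 and Tff3, given with their groups) and none rose.

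VPA raised 1266 genes and lowered 823. That is 10.8% of the genes tested, with 6.57% higher and 4.27% lower, and an unadjusted p was under 0.05 for 5006. Rises were also larger. Of the genes that rose, 412 changed more than 2-fold and 73 more than 4-fold, while of those that fell 139 changed more than 2-fold and 12 more than 4-fold. The median was 0.78 among rises and -0.62 among falls. Rises made up 60.6% of the calls. Their share was 76.7% (866 higher, 263 lower) when arrays were centred on their median in place of loess. With the log ratio of Agilent's software it was 55.7% (846 higher, 674 lower). With a replicate block for the line, the count of 2089 became 3744 (2096 higher, 1648 lower). Leaving arrays out gave 120 without the control array of line 1, 127 without that of line 2, 1149 without the VPA array of line 1 and 1050 without that of line 2. It was 1232 without either CHIR99021 array, which bears on the estimate of the spread alone. Of the 172 genes named in the text that rose or fell, 147 did not pass without either control array, 64 without the VPA array of line 1 and 68 without that of line 2, and none changed sign. Where a gene list below held no call in 1 direction, 0 to 3 of its members had an unadjusted p under 0.05 in that direction. List counts are to be read beside the 10.8% called over all genes. Smaller shares were called in the lists of G1/S, G2/M, stem cell, Myc, interferon and NRF2 genes. The same held for the amino acid stress, histone, deacetylase, cell cycle exit, tuft cell and neuronal lists. The SE of every value draws on arrays of all 4 groups, with just 2 arrays in each, 1 per line. In the control group their spread leaves out differences between control cultures, so that the SE may be too small and the counts too high. How far this holds was not tested.

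**Figure D1:**
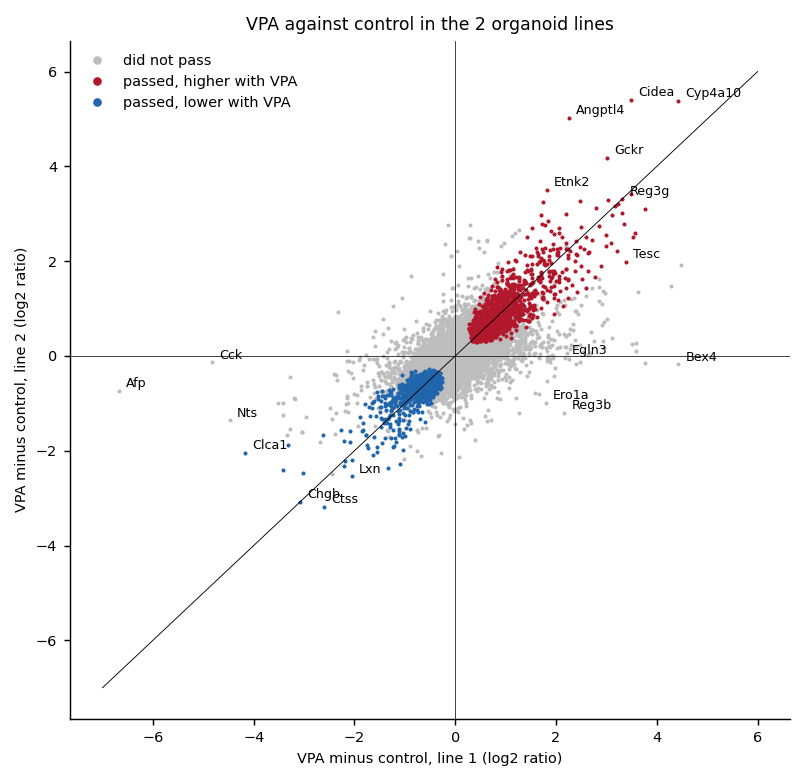
VPA minus control in line 1 (x axis) and line 2 (y axis), both as log2 ratios, for 19262 genes. Each point is a gene, red where it rose and blue where it fell in the fit over both lines, and the diagonal marks equal size in the lines. Cidea and Cyp4a10 lie at the upper right and Chgb and Ctss at the lower left of the coloured points, while Cck and Bex4 lie far out in line 1 and near 0 in line 2. Afp lies farthest out in line 1 and at -0.73 in line 2, and none of these 3 passed.

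The steadiest rise belonged to Crip2, which encodes a LIM domain protein of the cytoskeleton and nucleus. It read 0.08 and 0.13 in control and 3.30 and 3.35 with VPA, a rise of 3.22 ± 0.09 or 9.3-fold (adjusted p = 9.36e-05). The VPA arrays thus lay close together and far above both control arrays. Rgs10, a regulator that switches off G protein signals, read -0.01 and -0.11 in control and 3.16 and 3.07 with VPA and rose by 3.17 ± 0.10. Epor, the receptor for erythropoietin, read 0.01 and -0.02 in control and 3.04 and 3.26 with VPA and rose by 3.15 ± 0.10. Among genes of the smallest adjusted p were also Agpat4, an acyltransferase of phospholipid synthesis, which rose by 2.27 ± 0.11 (second probe 2.27), Ccdc136, which rose by 2.15 ± 0.09, and Grhl1, a grainyhead-like transcription factor of epithelia, which rose by 2.09 ± 0.09. On the falling side stood Gkn3, a gastrokine of crypt base cells. It read 0.34 and 0.34 in control and -1.85 and -1.88 with VPA, a fall of 2.20 ± 0.11. Pdzk1, the scaffold that holds transporters in the brush border, read -0.17 and -0.08 in control and -2.23 and -2.27 with VPA and fell by 2.12 ± 0.10. Ctss, the lysosomal protease cathepsin S, read 0.10 and 0.10 in control and -2.50 and -3.08 with VPA and fell by 2.90 ± 0.19, which is 7.45-fold.

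**Figure D2:**
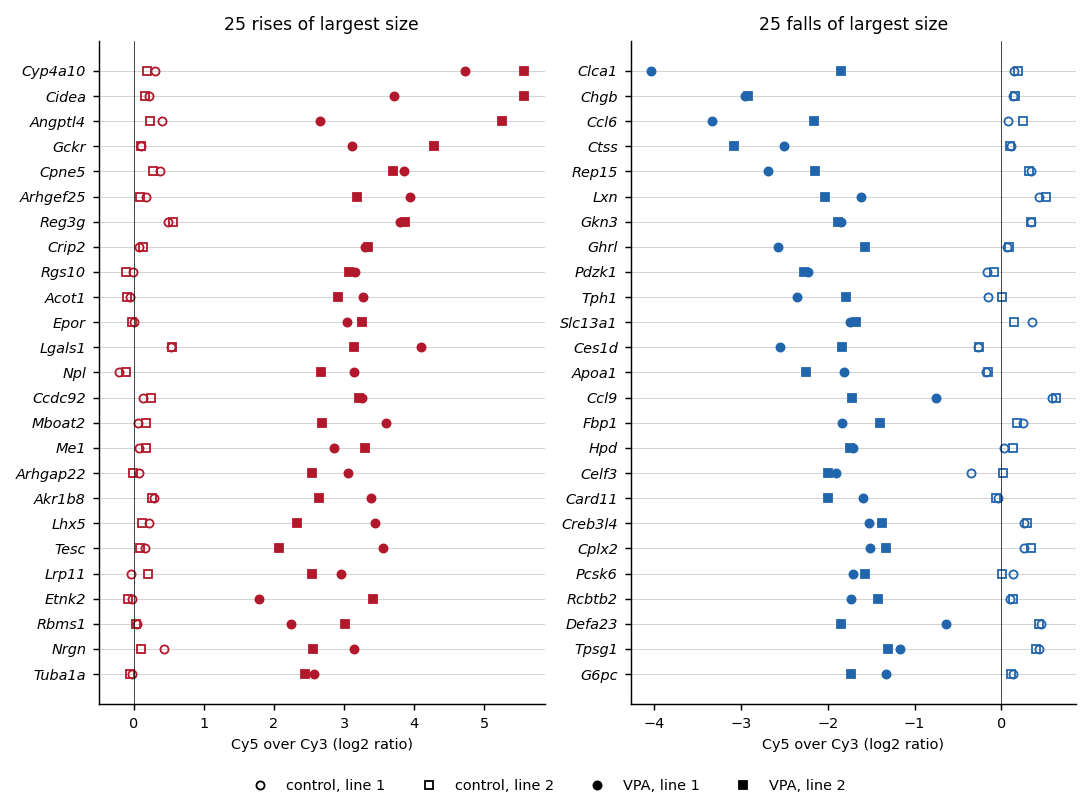
Log2 ratio of Cy5 over Cy3 on the 4 arrays for the 25 genes that rose most (left) and the 25 that fell most (right), named on the y axis. Open symbols are control arrays and filled ones VPA arrays, circles are line 1 and squares line 2. The filled symbols lie apart from the open ones for each gene, and the lines lie far apart for Angptl4, Etnk2 and Clca1.

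The largest rise of all was that of Cyp4a10, which hydroxylates the far end of fatty acids. It read 0.31 and 0.19 in control and 4.72 and 5.57 with VPA, a rise of 4.90 ± 0.92 or 29.8-fold, and its other probes read 3.24 and 2.03. Cidea, a protein that fuses lipid droplets, read 0.23 and 0.16 in control and 3.71 and 5.57 with VPA and rose by 4.45 ± 0.68. Angptl4, a secreted inhibitor of lipoprotein lipase, read 0.40 and 0.24 in control and 2.66 and 5.26 with VPA and rose by 3.64 ± 0.78, with 1 of the widest gaps between the lines. Gckr, which holds glucokinase inactive in the nucleus, read 0.11 and 0.10 in control and 3.12 and 4.28 with VPA and rose by 3.59 ± 0.38. In these 4 genes the VPA array of line 2 was the higher one. Line 1 was the higher in Lgals1, the lectin galectin-1, which read 0.53 and 0.54 in control and 4.09 and 3.15 with VPA and rose by 3.08 ± 0.55. The same held for Lhx5, a LIM homeobox factor best known from the brain (0.22 and 0.12 in control and 3.44 and 2.33 with VPA), and for Tesc, the calcium-binding protein tescalcin (0.17 and 0.09 in control and 3.56 and 2.08 with VPA). Reg3g, an antimicrobial lectin of the gut epithelium, read 0.49 and 0.56 in control and 3.80 and 3.87 with VPA and rose by 3.31 ± 0.38, by nearly the same step in either line. Cpne5, a copine that binds membranes in response to calcium, read 0.37 and 0.28 in control and 3.86 and 3.70 with VPA and rose by 3.46 ± 0.16. Arhgef25, an exchange factor of small GTPases, rose by 3.43 ± 0.37, and Arhgap22, a GTPase-activating protein, by 2.77 ± 0.30. Tuba1a, an alpha-tubulin abundant in neurons, rose by 2.55 ± 0.21, and Nrgn, a postsynaptic calmodulin-binding protein, by 2.59 ± 0.25.

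Promoter sequence was compared between the genes that rose and fell, over the 250 bases before each annotated start. RefSeq (GRCm38.p6) gave such windows for 11180 of the genes tested, 871 of those that rose and 510 of those that fell. A gene counted as holding a motif where any of its windows did, on either strand, and the motifs searched do not overlap one another in the windows shown. The GC box GGGCGG lay before 70.1% of the genes that rose, 61.4% of those that fell and 58.5% of all. Among genes that changed more than 2-fold it lay before 74.3% of 304 that rose and 40.7% of 91 that fell. TATAAA lay before 7.89% and 18.7% of the same genes, against 10% of all. CCAAT lay before 45.7% and 35.2%, against 40.1% of all. Base composition differed too, with a median GC content of 61.2% for these rises, 54.8% for these falls and 58.8% for all. The motif shares were not adjusted for it. Over all 32851 windows in the table, 32.7% held GGGCGG, 12.4% TATAAA and 33.8% CCAAT. These shares are descriptions with no test, the motifs were chosen with the values known, and a match is not evidence of a binding site. The direct repeat AGGTCANAGGTCA, the textbook form of the site of PPAR with its partner RXR, lay before 6 genes tested and 0.0335% of all windows. Of the genes that rose or fell it lay before Bco1 alone, whose product cleaves beta-carotene to retinal and which rose by 1.14 ± 0.20. The windows of the rises Crip2 and Rgs10, the falls Gkn3 and Ctss, and Bco1 are shown 5′ to 3′ on the strand of the gene. Matches on either strand are in capitals. Crip2 (chr12:113139986-113140235, plus strand, the first of its 2 windows) held 4 GC boxes, Rgs10 (chr7:128418173-128418422, minus strand) 2, and Gkn3 (chr6:87388936-87389185, minus strand) none of the motifs. Ctss (chr3:95526536-95526785, plus strand) held 1 GC box and 1 TATAAA, and Bco1 (chr8:117095615-117095864, plus strand) 1 TATAAA and the direct repeat.
Crip2: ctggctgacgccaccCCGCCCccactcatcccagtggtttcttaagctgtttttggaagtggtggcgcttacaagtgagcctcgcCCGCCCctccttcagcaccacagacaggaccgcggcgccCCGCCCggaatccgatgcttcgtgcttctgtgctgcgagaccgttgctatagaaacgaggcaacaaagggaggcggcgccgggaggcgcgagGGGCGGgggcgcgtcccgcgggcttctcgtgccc
Rgs10: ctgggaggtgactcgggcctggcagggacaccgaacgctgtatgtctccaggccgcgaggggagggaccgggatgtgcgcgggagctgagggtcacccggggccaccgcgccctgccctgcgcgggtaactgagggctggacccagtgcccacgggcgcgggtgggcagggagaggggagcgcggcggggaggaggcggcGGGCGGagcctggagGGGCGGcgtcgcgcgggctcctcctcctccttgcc
Gkn3: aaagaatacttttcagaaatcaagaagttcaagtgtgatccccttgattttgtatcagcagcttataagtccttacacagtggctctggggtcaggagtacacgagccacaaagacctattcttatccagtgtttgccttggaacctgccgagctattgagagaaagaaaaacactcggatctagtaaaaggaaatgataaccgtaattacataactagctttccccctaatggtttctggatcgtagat
Ctss: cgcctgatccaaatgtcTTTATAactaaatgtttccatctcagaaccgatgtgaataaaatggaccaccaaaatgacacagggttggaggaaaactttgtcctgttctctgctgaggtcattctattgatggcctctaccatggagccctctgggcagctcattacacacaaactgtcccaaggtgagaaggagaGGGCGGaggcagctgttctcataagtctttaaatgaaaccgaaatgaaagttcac
Bco1: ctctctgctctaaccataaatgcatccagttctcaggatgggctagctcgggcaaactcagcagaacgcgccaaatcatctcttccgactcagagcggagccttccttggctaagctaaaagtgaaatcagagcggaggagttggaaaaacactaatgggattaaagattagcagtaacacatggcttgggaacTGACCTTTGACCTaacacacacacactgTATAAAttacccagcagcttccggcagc

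Among genes that burn fatty acids, rises ran from the carnitine shuttle, which takes the acids into the mitochondrion, to the last step of the cycle. Not every member passed. Of 24 genes of mitochondrial fatty acid oxidation, 11 rose and 1 fell, with a median of 0.56 (0.37 in line 1 and 0.67 in line 2) against a median near 0 for all genes. Cpt1a, which makes acylcarnitines at the outer membrane, read 0.18 and 0.25 in control and 0.98 and 1.23 with VPA and rose by 0.89 ± 0.15. Slc25a20, which carries them across the inner membrane, read -0.33 and -0.19 in control and 0.93 and 1.44 with VPA and rose by 1.45 ± 0.17, and Cpt2, which turns them back, read 0.05 and 0.07 in control and 0.92 and 1.05 with VPA and rose by 0.93 ± 0.11. The dehydrogenases that start the cycle followed, with Acadvl for very long chains at 0.88 ± 0.12 and Acadl for long chains at 1.46 ± 0.27. Both subunits of the trifunctional protein rose, Hadha from ratios of -0.22 and -0.11 in control and 0.52 and 0.57 with VPA and Hadhb from -0.33 and -0.33 in control and 0.77 and 1.34 with VPA. Acaa2, the thiolase of the last step, rose by 0.98 ± 0.11. The thioesterase Acot2, which frees fatty acids in the matrix, rose most of the list, by 2.03 ± 0.25. The single fall was that of Eci1, an isomerase for unsaturated chains, at -0.49 ± 0.10. Of 38 subunits of the respiratory chain and ATP synthase, 0 rose and 0 fell by limma (6 had an unadjusted p under 0.05), and 22 had positive values (median 0.04).

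Peroxisomes, which shorten very long and branched chains, held the same direction. Of 36 genes of peroxisomal oxidation and biogenesis, 11 rose and 0 fell (median 0.37). Abcd3, the transporter that takes in branched and dicarboxylic acids, read 0.13 and 0.02 in control and 1.61 and 1.53 with VPA and rose by 1.50 ± 0.16. Ehhadh, an enzyme of the inner steps of the cycle, rose by 0.86 ± 0.17, and Crot, which passes shortened chains on as carnitine esters, rose by 1.24 ± 0.11. Pex11a, which drives peroxisome division, read 0.46 and 0.22 in control and 1.57 and 1.74 with VPA and rose by 1.32 ± 0.13. Thus an importer, a carnitine transferase and a division factor were all among the rises. Of 16 genes of omega-hydroxylation and cytosolic thioesters, 5 rose and 1 fell. The cytosolic thioesterase Acot1 read -0.04 and -0.09 in control and 3.27 and 2.91 with VPA and rose by 3.16 ± 0.26. Acot12, an acetyl-CoA hydrolase, was not well above background on either control array and rose by 1.80 ± 0.20. Cyp4a31 was likewise not well above background in control and rose by 0.60 ± 0.12. Genes that dim in control were tested only because another group was bright, so that these calls and their sizes are uncertain. Of the 1266 rises, 36 were not well above background on either control array. Of the 823 falls, 4 were not so on either VPA array. Cyp4f14, a related hydroxylase, read 0.04 and 0.14 in control and -0.79 and -0.82 with VPA and fell by 0.89 ± 0.14.

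**Figure D3:**
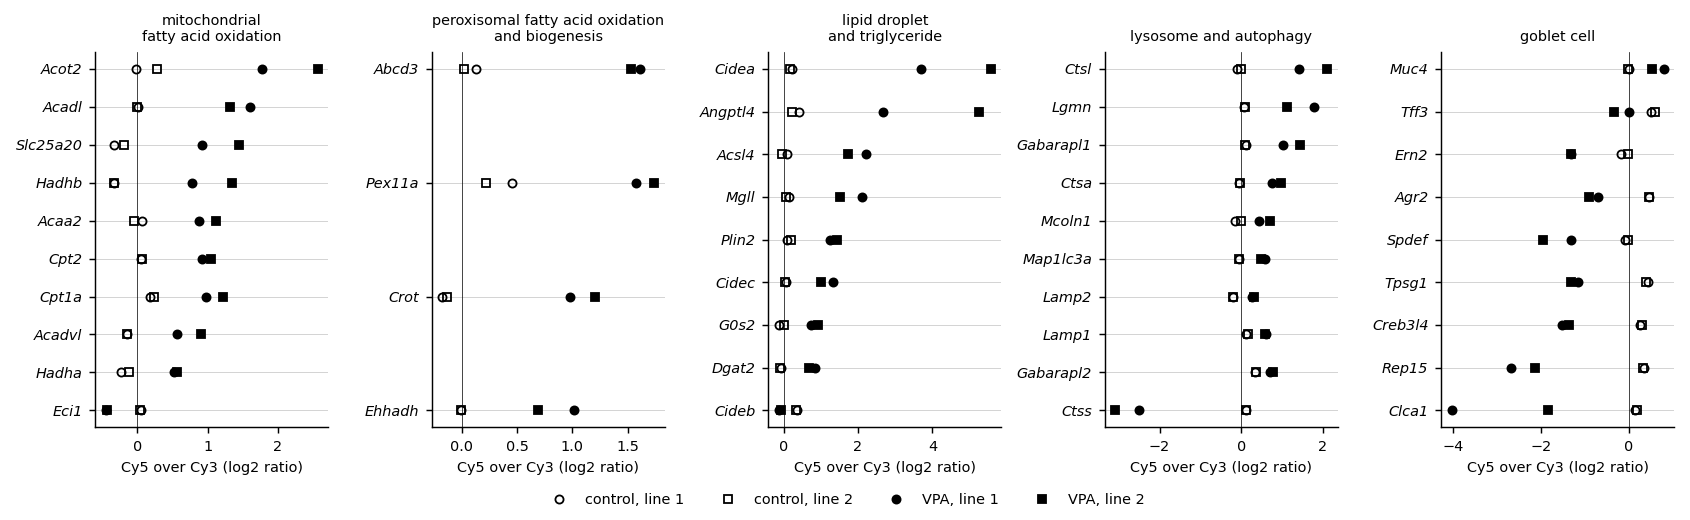
Log2 ratio of Cy5 over Cy3 on the 4 arrays for the members of 5 gene lists that passed the threshold and are named in the text, with the list above each panel. Open symbols are control arrays and filled ones VPA arrays, circles are line 1 and squares line 2. Filled symbols lie to the right in the lipid and lysosome panels except for Eci1, Cideb and Ctss, and to the left in the goblet cell panel except for Muc4.

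Some genes that store fat rose, as did some that burn it. Of 32 lipid droplet and triglyceride genes, 10 rose and 1 fell (median 0.29). Plin2, the coat protein of lipid droplets, read 0.10 and 0.18 in control and 1.24 and 1.44 with VPA and rose by 1.20 ± 0.15. Cidec, which like Cidea fuses droplets, rose by 1.12 ± 0.25, while the third member of that family, Cideb, read 0.37 and 0.34 in control and -0.12 and -0.07 with VPA and fell by 0.45 ± 0.09. Dgat2, which makes triglyceride, rose by 0.84 ± 0.15. An inhibitor and an enzyme of fat breakdown both rose, with G0s2, which blocks the lipase ATGL, at 0.89 ± 0.14 and Mgll, the monoglyceride lipase, at 1.71 ± 0.28. Acsl4, which activates arachidonic acid, read 0.08 and -0.05 in control and 2.21 and 1.73 with VPA and rose by 1.95 ± 0.39 (second probe 1.04). Of 21 fat absorption genes, 2 rose and 1 fell. Mttp, which loads lipid onto apolipoprotein B, rose by 0.64 ± 0.10, and Scarb1, a lipoprotein receptor, rose by 0.74 ± 0.17. Apoa1, the main protein of high-density lipoprotein, read -0.18 and -0.16 in control and -1.81 and -2.25 with VPA and fell by 1.87 ± 0.31. The fatty acid binding protein Fabp1 read 0.36 and 0.49 in control and 3.22 and 1.95 with VPA, a difference of 2.16 ± 0.60 that did not pass (adjusted p = 0.0711). Of 18 fatty acid synthesis genes, 4 rose and 0 fell. Me1, which supplies NADPH for synthesis, read 0.07 and 0.18 in control and 2.85 and 3.30 with VPA and rose by 2.95 ± 0.33, and Elovl5, which lengthens polyunsaturated chains, rose by 1.15 ± 0.25. Acacb, the acetyl-CoA carboxylase that makes the inhibitor of CPT1, rose by 2.40 ± 0.15 on its brightest probe, while its other probe read -0.03. Sterol synthesis held 1 rise in 26 genes, that of the sterol sensor partner Insig2 (0.47 ± 0.12).

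Of 16 genes of gluconeogenesis and glucose handling, 3 fell and 2 rose, and the falls lay at the end of glucose output. G6pc, the catalytic subunit of glucose-6-phosphatase, read 0.13 and 0.11 in control and -1.33 and -1.74 with VPA and fell by 1.65 ± 0.27, and its transporter Slc37a4 read 0.13 and 0.11 in control and -1.36 and -0.96 with VPA and fell by 1.28 ± 0.18. Fbp1, the fructose bisphosphatase before it, read 0.25 and 0.18 in control and -1.83 and -1.39 with VPA and fell by 1.83 ± 0.40. The rises were Gckr, above, and Pcx, which makes oxaloacetate from pyruvate and rose by 1.18 ± 0.22. Among 20 genes of branched-chain amino acid and propionate breakdown, 4 rose and 1 fell. Bckdhb, a subunit of the dehydrogenase of branched chains, read -0.14 and 0.05 in control and 0.84 and 0.93 with VPA and rose by 0.93 ± 0.11. The 2 subunits of propionyl-CoA carboxylase went opposite ways, with Pcca at 0.73 ± 0.10 and Pccb at -0.85 ± 0.15, both past the threshold. Mmut, the mutase that follows, rose by 0.55 ± 0.08. Of 18 urea cycle and arginine genes, 4 rose and 0 fell. Ass1, which makes argininosuccinate, read 0.22 and 0.45 in control and 2.35 and 1.50 with VPA and rose by 1.59 ± 0.27. Agmat, which splits agmatine, rose by 0.84 ± 0.19. Otc, a urea cycle enzyme, read 0.23 ± 0.44 and did not pass.

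Lysosome and autophagy genes held more rises than falls. Of 39, 11 rose and 1 fell, and the median was 0.35 (0.40 and 0.30 in the lines). The protease Ctsl read 1.42 and 2.11 with VPA, against control ratios near 0, and rose by 1.81 ± 0.24, opposite to its relative Ctss. Lgmn, the asparagine endopeptidase that activates cathepsins, read 0.08 and 0.10 in control and 1.77 and 1.12 with VPA and rose by 1.36 ± 0.25. Ctsa, which protects other lysosomal enzymes, rose by 0.91 ± 0.11, and Mcoln1, the calcium channel of the lysosome, by 0.65 ± 0.13. Autophagosome proteins of the LC3 family rose too, Gabarapl1 by 1.14 ± 0.16, Map1lc3a by 0.60 ± 0.11 and Gabarapl2 by 0.39 ± 0.10. Lamp1 and Lamp2, the main membrane proteins of the organelle, rose by 0.45 ± 0.11 and 0.49 ± 0.10 (second Lamp2 probe 1.16). The largest rises of the list were those of the proteases Ctsl and Lgmn.

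Many secretory lineage genes fell. In bulk RNA, fewer cells of a type and less RNA per cell cannot be told apart. Of 28 goblet cell genes, 11 fell and 1 rose (median -0.95; -0.96 in line 1 and -0.71 in line 2). Clca1, a secreted protein of goblet cell mucus, read 0.14 and 0.19 in control and -4.04 and -1.85 with VPA and fell by 3.11 ± 0.64. Tpsg1, a tryptase, read 0.44 and 0.39 in control and -1.17 and -1.31 with VPA and fell by 1.65 ± 0.09. Rep15, an endosomal protein, read 0.34 and 0.32 in control and -2.69 and -2.15 with VPA and fell by 2.74 ± 0.33. Factors that build the secretory apparatus were lower as well. Spdef, the transcription factor of goblet cell maturation, read -0.09 and -0.02 in control and -1.32 and -1.95 with VPA and fell by 1.58 ± 0.20, and Creb3l4, a membrane-bound factor of secretory cells, read 0.26 and 0.29 in control and -1.52 and -1.37 with VPA and fell by 1.72 ± 0.30. Agr2, the disulfide isomerase needed to fold mucin, read 0.47 and 0.46 in control and -0.71 and -0.92 with VPA and fell by 1.28 ± 0.23. The stress sensor of mucus-making cells, Ern2, fell by 1.21 ± 0.10 and its target Xbp1 by 0.64 ± 0.15. The trefoil peptide Tff3 fell less, by 0.72 ± 0.15. The single rise was the membrane mucin Muc4, at 0.68 ± 0.14.

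Of 22 Paneth cell genes, 4 fell and 1, Reg3g, rose (median -0.76). The alpha-defensin Defa22, an antimicrobial peptide, read 0.31 and 0.36 in control and -0.81 and -1.19 with VPA and fell by 1.34 ± 0.16. Its relative Defa3 read 0.48 and 0.39 in control and -0.58 and -1.32 with VPA and fell by 1.39 ± 0.27. Alpha-defensins are near-identical in sequence, so their probes can cross-hybridise. The lysozyme Lyz1 differed between lines, with 0.05 in line 1 and -1.10 in line 2, and did not pass. The Reg family parted, since Reg4, a lectin of secretory cells, read 0.14 and 0.32 in control and -1.09 and -1.25 with VPA and fell by 1.40 ± 0.24. Of 25 enteroendocrine hormone and granule genes, 5 fell and 1 rose. The granule protein Chgb read 0.13 and 0.16 in control and -2.95 and -2.92 with VPA and fell by 3.08 ± 0.36 or 8.48-fold. Ghrl, which encodes ghrelin, read 0.06 and 0.09 in control and -2.57 and -1.57 with VPA and fell by 2.15 ± 0.42 (second probe -2.09), and Cplx2, which clamps vesicle fusion, read 0.26 and 0.34 in control and -1.51 and -1.33 with VPA and fell by 1.72 ± 0.18 (other probes -0.55 and -0.44). Chga, another granule protein, read -0.33 and 0.04 in control and -3.67 and -1.63 with VPA and did not pass (adjusted p = 0.133 from limma), but passed with the line as a replicate block (adjusted p = 0.0131). The rise was that of Fam183b, at 1.47 ± 0.25. Of 18 enteroendocrine transcription factors, 5 fell and 0 rose by limma. Runx1t1 read 0.41 and 0.34 in control and -0.56 and -0.63 with VPA and fell by 0.97 ± 0.10, Pax4, which specifies serotonin and somatostatin cells, read 0.16 and 0.26 in control and -1.05 and -1.64 with VPA and fell by 1.55 ± 0.28, and Rfx6 and Insm1, which act along the same path, fell by 0.82 ± 0.15 and 0.68 ± 0.16. Of 28 tuft cell genes 2 fell and 1 rose. Lrmp fell by 1.38 ± 0.15, the keratin Krt18 is given below, and Plcg2, a phospholipase that signals in tuft cells, rose by 1.14 ± 0.18. Of 11 M cell genes, 2 fell and 1 rose.

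**Figure D4:**
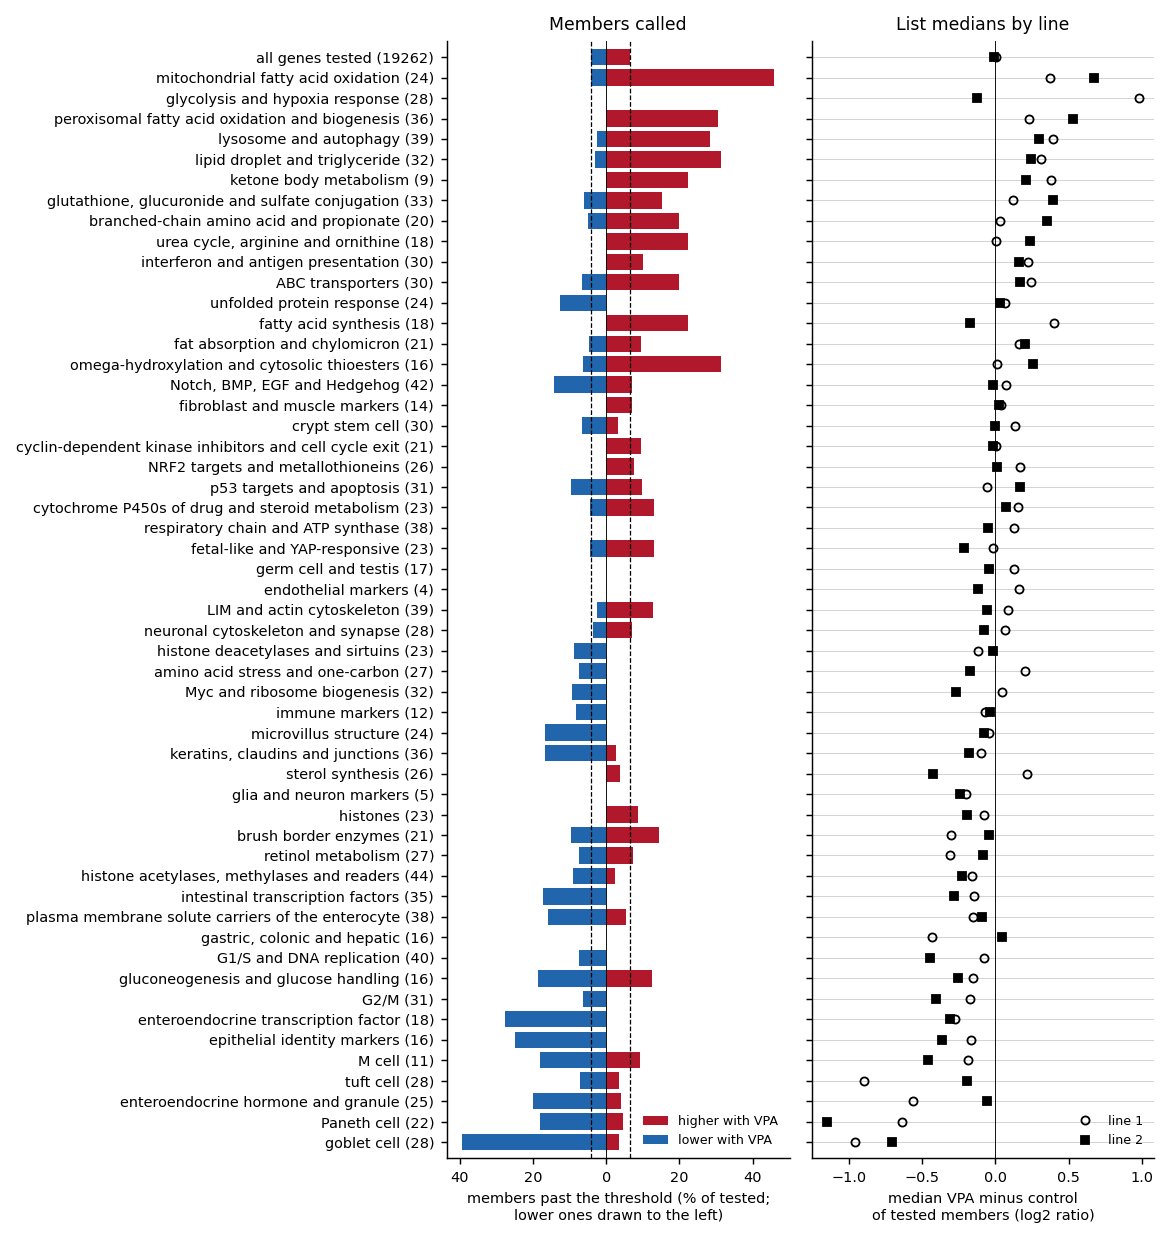
Left, members of each gene list past the threshold, as a percentage of those tested (number in parentheses on the y axis), with rises in red to the right and falls in blue to the left. Dashed lines mark the shares over all genes, 6.57% and 4.27%. Right, the median VPA minus control (log2 ratio) of each list in line 1 (circles) and line 2 (squares). Both fatty acid oxidation lists stand above 0 and the goblet and Paneth cell lists far below it in both lines, whereas the glycolysis and hypoxia list lies at 0.98 in line 1 and -0.12 in line 2.

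Of 38 plasma membrane solute carriers, 6 fell and 2 rose. Slc13a1, which takes up sulfate, read 0.36 and 0.14 in control and -1.74 and -1.68 with VPA and fell by 1.96 ± 0.33. Slc6a19, the main carrier of neutral amino acids, read 0.39 and 0.51 in control and -0.72 and -1.08 with VPA and fell by 1.35 ± 0.25. Slc51a and Slc51b, the pair that lets bile acids out at the basal side, fell by 0.49 ± 0.12 and 0.99 ± 0.23. Of the rises, Slc1a1, a glutamate carrier, reached 0.88 ± 0.21, and the iron carrier Slc11a2 rose by 0.68 ± 0.13 on its brightest probe while its other probes read -0.66 and 0.10. Among 21 brush border enzymes, 3 rose and 2 fell. Amn and Cubn, which together form the receptor for vitamin B12 bound to intrinsic factor, both rose, Amn by 1.27 ± 0.29 and Cubn by 0.92 ± 0.21. The purine enzyme Ada rose by 0.97 ± 0.13. The disaccharidase Treh and the peptidase Dpp4 fell by 0.95 ± 0.13 and 0.92 ± 0.20. The phosphatase Alpi, the usual marker of the brush border, read 0.12 ± 0.34 and did not pass. Of 24 microvillus genes, 4 fell and 0 rose by limma, among them Pdzk1 and Baiap2l2, a membrane-bending protein of microvilli (0.90 ± 0.17 lower).

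Of 36 keratins, claudins and junction genes, 6 fell and 1 rose. Krt8 and Krt18, the paired keratins of simple epithelia, fell together, by 0.84 ± 0.12 and 0.64 ± 0.13. Claudins were divided. Cldn15, which forms sodium pores in the small intestine, and Cldn3, which seals, fell by 0.76 ± 0.10 and 0.66 ± 0.10, and Cldn8, a barrier claudin of distal segments, read 0.10 and 0.07 in control and 2.13 and 2.25 with VPA and rose by 2.11 ± 0.14. Of 35 intestinal transcription factors, 6 fell and 0 rose by limma. The nuclear receptors Nr1i3, which senses drugs, and Nr1h3, which senses oxysterols, fell by 0.92 ± 0.11 and 1.13 ± 0.22, and their partner Rxra fell by 0.51 ± 0.12. Cdx1, a homeobox factor of intestinal identity, fell by 0.58 ± 0.12.

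Stem cell genes showed no common direction. Of 30, 1 rose and 2 fell (median 0.08), and Lgr5 and Ascl2, which mark crypt base stem cells, read -0.26 ± 0.35 and -0.31 ± 0.14 and did not pass. Nkd1, a Wnt target and inhibitor, rose by 1.00 ± 0.14 on its brightest probe and read -0.04 on the other. Of 42 genes of Notch, BMP, EGF and Hedgehog signalling, 3 rose and 6 fell. Receptors of the Notch pathway went opposite ways. Notch3 read 0.12 and 0.12 in control and 2.10 and 1.87 with VPA and rose by 1.86 ± 0.18, whereas Notch1 read 0.33 and 0.25 in control and -0.09 and -0.13 with VPA and fell by 0.40 ± 0.09. The target Hes1 and the ligand Dll1 fell by 0.66 ± 0.13 and 0.81 ± 0.19. The receptors Egfr and Erbb2 fell by 0.51 ± 0.09 and 0.45 ± 0.09, and Ihh, the Hedgehog ligand of the villus, by 0.78 ± 0.17. Tgfb1 rose by 0.87 ± 0.13.

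Of 40 genes of G1/S and DNA replication, 3 fell and 0 rose by limma (median -0.25, with -0.08 in line 1 and -0.45 in line 2). Of these 40, 31 had negative values, and the unadjusted limma p was under 0.05 for 13 lower and 3 higher genes. The thymidine kinase Tk1 was 0.96 ± 0.12 lower. Of 31 G2/M genes, 2 fell and 0 rose by limma (median -0.26, with -0.17 in line 1 and -0.40 in line 2). Negative values were read for 28 of them, and the unadjusted limma p was under 0.05 for 10 lower and 0 higher genes. The mitotic kinesin Kif23 was 0.74 ± 0.17 lower. The proliferation antigen Mki67 read -0.07 ± 0.23 and Myc 0.28 ± 0.30, and neither passed. Of 21 inhibitors of cyclin-dependent kinases and genes of cell cycle exit, 2 rose and 0 fell. That is 9.5% called, against 10.8% of all genes. Cdkn2d, which encodes p19INK4d, read -0.19 and -0.10 in control and 0.83 and 0.76 with VPA and rose by 0.94 ± 0.10, and Rb1, the retinoblastoma protein, read -0.18 and -0.18 in control and 0.59 and 1.01 with VPA and rose by 0.99 ± 0.16. The inhibitor best known to answer to deacetylase inhibition, Cdkn1a (p21), read 0.42 and 0.39 in control and 1.51 and 0.17 with VPA, which is higher in line 1 and not in line 2, and did not pass. Of 31 p53 and apoptosis genes, 3 rose and 3 fell. The death receptor Fas rose by 1.07 ± 0.13 (second probe 0.36) and the BH3-only protein Bmf by 1.32 ± 0.19 (second probe 0.14), while the survival factor Mcl1 fell by 0.47 ± 0.09.

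Among the deacetylases that VPA is known to inhibit, Hdac2 and Hdac3, which act in nuclear repressor complexes, read 0.14 ± 0.21 and 0.16 ± 0.09 and did not pass. Of 23 deacetylases, sirtuins and partners, 2 fell and 0 rose by limma, so that 8.7% were called against 10.8% of all genes. Hdac7, of the class that shuttles between nucleus and cytoplasm, read 0.05 and 0.05 in control and -1.03 and -0.73 with VPA and fell by 0.93 ± 0.18, and Sirt1, which depends on NAD, read 0.75 and 0.51 in control and -0.23 and -0.34 with VPA and fell by 0.92 ± 0.14. Of 23 histone genes 2 rose, both of them linker histones, so that 8.7% were called against 10.8% of all genes. H1f0, the linker of resting and differentiated cells, read -0.60 and -0.54 in control and 0.42 and 0.29 with VPA and rose by 0.92 ± 0.12 (other probes 0.66 and 0.72), and H1f2 rose by 0.66 ± 0.12. No core histone measured passed, and 5 of the 23 genes had positive values. Of 44 histone acetylases, methylases and readers, 4 fell and 1 rose. The bromodomain reader Brd2 fell by 0.50 ± 0.10, and Suv39h1, which methylates histone H3 in heterochromatin, fell by 0.47 ± 0.11. The demethylase Kdm5b rose by 0.47 ± 0.10, with a second probe at 0.09.

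Of 23 cytochrome P450 genes of drug and steroid metabolism, 3 rose and 1 fell, led by Cyp2e1, which oxidises ethanol and ketones (-0.11 and -0.03 in control and 1.62 and 1.19 with VPA, a rise of 1.47 ± 0.29). Por, which feeds electrons to microsomal P450s, rose by 0.82 ± 0.20. Of 33 conjugation genes 5 rose and 2 fell, and the mu-class glutathione transferases Gstm2 and Gstm4 rose by 0.72 ± 0.11 and 1.21 ± 0.25. Among 30 ABC transporters, 6 rose and 2 fell, with the efflux pump Abcc4 at 1.08 ± 0.25 on its brightest probe and 0.04 on the other. In the retinol list 2 of 27 rose and 2 fell. Lrat, which stores retinol as ester, rose by 0.85 ± 0.21 beside Bco1, and Rdh10, which makes retinal for retinoic acid, fell by 1.08 ± 0.17. Of 30 interferon and antigen presentation genes 3 rose and 0 fell. Bst2, the tetherin that holds enveloped viruses on the cell, read 0.21 and 0.26 in control and 1.72 and 2.20 with VPA and rose by 1.73 ± 0.17. In the unfolded protein list of 24 genes 3 fell and 0 rose, in the amino acid stress list of 27 genes 2 fell and 0 rose, and in the NRF2 and metallothionein list of 26 genes 2 rose and 0 fell, with Sod1 at 0.84 ± 0.09. Of 32 Myc and ribosome biogenesis genes 3 fell and 0 rose, with the nucleolar protein Npm1 at 0.73 ± 0.09 lower.

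Mapt, which encodes the microtubule protein tau, read 0.36 and 0.26 in control and 2.23 and 2.28 with VPA and rose by 1.94 ± 0.09 (other probes 1.83 and 1.50). Yet of 54 neuronal genes on the array only 28 were bright enough to test, 2 of which rose and 1 fell (median near 0). Of 17 germ cell and testis genes tested, 0 rose and 0 fell by limma (2 with an unadjusted p under 0.05), and the same held for 16 gastric, colonic and hepatic genes (2). Of 39 LIM and actin cytoskeleton genes, 5 rose and 1 fell, with the beta-tubulin Tubb2b at 1.59 ± 0.18, the actin-binding calponin Cnn2 at 1.91 ± 0.41 and the actin crosslinker Flna at 1.10 ± 0.15 (other probes 0.02 and 0.63). Of 23 fetal-like and YAP-responsive genes, 3 rose and 1 fell, and Anxa1 and Anxa5, annexins that bind membranes, rose by 2.05 ± 0.50 and 1.43 ± 0.31. Markers of other cell types were measured as well. Of 19 fibroblast and muscle markers on the array, 14 were tested, 8 of them above background on both control arrays and 12 on both VPA arrays. They ran from -0.34 to 0.79, and 1 rose, the collagen Col1a1, by 0.79 ± 0.14. It was not well above background on either control array, and its call and size are uncertain for that reason. Of 18 immune markers 12 were tested, 10 of them above background on both arrays of either medium. They ran from -0.89 to 0.51, and 1 fell, the receptor subunit Cd14. Of 12 endothelial and 12 glial and neuronal markers, 4 and 5 were tested and none passed by limma (1 and 2 with an unadjusted p under 0.05). Whether such cells had a part in any result above was not tested.

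With the line as a replicate block, more members passed in many lists. The glycolysis and hypoxia list then held 4 rises in place of 0, the germ cell and testis list 2 in place of 0, and the respiratory chain list 2 rises and 1 fall in place of none. The gastric, colonic and hepatic list held 1 fall in place of 0. Tuft cell genes held 8 falls in place of 2, and Paneth cell genes 7 in place of 4. The lysosome and autophagy list held 18 rises in place of 11, the interferon list 7 in place of 3 and the NRF2 list 6 in place of 2. Genes of G1/S held 6 falls and 2 rises, in place of 3 and 0, and G2/M genes 5 falls in place of 2. The unfolded protein list held 4 falls and 2 rises, in place of 3 and 0.

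The lines answered VPA to different extents in some lists. Across all genes, the SD of VPA minus control was 0.515 in line 1 and 0.45 in line 2, and among the 2089 calls the larger change was in line 1 for 1038 genes and in line 2 for 1051. The gap was over 1 on the log2 scale for 25 of the calls. With 1 array per line and medium, the difference between the lines was not tested. The glycolysis and hypoxia list lay apart, with a median of 0.98 in line 1 and -0.12 in line 2, higher in line 1 for 27 of 28 genes and 0 called by limma (4 with an unadjusted p under 0.05). Its members named here were chosen after their values were seen. Egln3, the oxygen sensor induced by hypoxia, read 2.17 in line 1 and -0.04 in line 2. The glucose transporter Slc2a1 read 1.84 in line 1 and -0.01 in line 2, and the oxidase of the secretory pathway Ero1a read 1.80 in line 1 and -0.99 in line 2. Fatty acid synthesis and sterol synthesis also had opposite medians, 0.40 and -0.17 for the former and 0.22 and -0.42 for the latter. In the other direction, mitochondrial fatty acid oxidation was higher in line 2 for 19 of 24 genes. Tuft cell genes lay at -0.90 in line 1 and -0.19 in line 2, and Dclk1, a kinase that marks tuft cells, read -2.03 in line 1 and -0.14 in line 2. Single hormones varied as well. Cck, which encodes cholecystokinin, read -4.83 in line 1 and -0.13 in line 2. Afp, the fetal protein also made in yolk sac and gut, read 0.12 and 0.38 in control and -6.55 and -0.35 with VPA, which made its mean of -3.70 the lowest of all genes without passing (adjusted p = 0.401). Reg3b, a close relative of Reg3g, read 2.16 in line 1 and -1.20 in line 2 and did not pass.

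The same contrast could be drawn on a background of CHIR99021, as the combination minus CHIR99021 alone. It used none of the 4 arrays of the comparison above, but the same lines and slides, the same Cy3 RNA and the same estimate of each gene's spread. That spread draws on the control arrays too, which leave out differences between control cultures, and the counts depend on it. There 1196 genes rose and 734 fell, 10% of those tested (6.21% and 3.81%). With the replicate block the counts were 1976 and 1438. With only these 2 groups fitted they were 211 and 78, and 14.9% of the calls were kept. Leaving out a CHIR99021 array left 366 (line 1) or 287 (line 2) calls, leaving out either control array 710 and the combination array of line 1 789. Of the genes that rose with VPA alone 891 rose here too, and of those that fell 495 fell, which together make 66.3% of the calls without CHIR99021 and 71.8% of those with it, and none was called in the opposite direction. Their medians were 0.68 and -0.55 with CHIR99021, against 0.78 and -0.62 without.

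Some named genes read nearly the same in both media. Rgs10 rose by 3.09 ± 0.10 with CHIR99021 present, Epor by 3.10 ± 0.10, Cidea by 4.03 ± 0.68 and Ctss read -3.15 ± 0.19. Other genes differed in size. Cpne5 read 0.86 ± 0.16 with CHIR99021 against 3.46 ± 0.16 without, and the difference, -2.60 ± 0.23, had the smallest adjusted p of the interaction, 0.251. Acot12 read 0.28 ± 0.20 and Mgll -0.14 ± 0.28, neither past the threshold there, and Slc13a1 read -0.37 ± 0.33. Reg3g read 4.96 ± 0.38 and Defa23, an alpha-defensin, -4.20 ± 0.39 against -1.69 ± 0.39 without. Cyp4a10 was line-dependent with CHIR99021, at 0.12 in line 1 and 3.69 in line 2, and Angptl4 read 1.49 in line 1 and 3.13 in line 2. The test of the difference itself passed for 0 genes by limma (511 with an unadjusted p under 0.05), so that no gene was shown to answer VPA differently in the presence of CHIR99021 at this number of arrays.

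**Figure D5:**
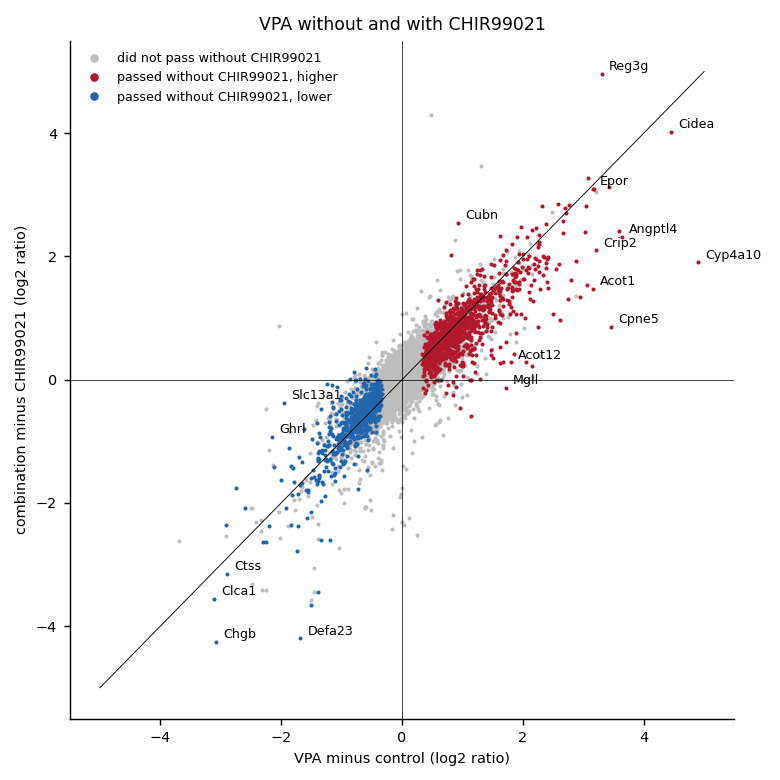
VPA minus control (x axis) against the combination minus CHIR99021 (y axis), both as log2 ratios, for 19262 genes. Red and blue points rose and fell without CHIR99021, and the diagonal marks equal effects. Cidea, Epor and Ctss lie near the diagonal, Reg3g, Cubn and Defa23 lie farther from the horizontal axis than it, and Cyp4a10 and Cpne5 nearer, with Mgll on that axis.

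By list, fatty acid oxidation kept its direction and was smaller with CHIR99021. The mitochondrial list held 8 rises and 1 fall (median 0.34) and the peroxisomal list 4 and 1 (median 0.19). Lysosome and autophagy genes held 14 rises and 1 fall (median 0.38). The goblet cell list held 11 falls and 2 rises (median -0.79), and the Paneth cell list 11 falls and 1 rise (median -1.49). The glycolysis and hypoxia list lay at 0.37 in line 1 and 0.15 in line 2. G1/S genes held 7 falls and 1 rise and G2/M genes 7 falls and 0 rises. None of these differences between lists was tested.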

How the data were processed

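RNA of 8 organoid samples was measured on 2-colour Agilent mouse arrays. Spot intensity came from Feature Extraction 10.5.1.1 and the design from build mm9, per the file headers. The deposited files hold median intensity of spot and local background for each dye, outlier flags, and a log10 ratio that the scanner software had corrected. The series table deposited by the authors holds that ratio as log2.

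Here the median intensity was corrected with normexp (offset 50) and normalised by loess within arrays with limma 3.58.1 in R 4.3.3. Control spots had weight 0 and spots with 3 kinds of outlier flag were left out. Genes were named by RefSeq accession (27479 of 41174 probes), and the brightest probe stood for a gene. Testing was limited to genes whose Cy5 signal was well above background in both lines of some group. All 8 arrays entered lmFit and eBayes with 4 groups. The fit of VPA against control was run on simulated data, with independent noise of the same SD on all 8 arrays of a gene. The control arrays' design and the correlation between same-numbered arrays were not simulated. That run therefore does not bear on the calls. Replicate numbers name the lines, so they pair the samples: deviations of same-numbered arrays correlated at 0.122 to 0.755.

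The genes named are the 25 largest rises and falls, up to 6 per list, the 8 of smallest adjusted p, the 8 of widest line gap and a fixed set. Further list members were named after their values were seen. A few genes that the rule names are not reported here. Members, lists and tests were chosen with earlier results of these data known. Alternatives covered the block, the fit's groups, normalisation, background, filter, probes and each array left out.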

Additional observations from a re-analysis of the deposited data

How the results depend on the processing

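With the line as a replicate block, 3744 genes passed for VPA against control and 3414 for VPA added to CHIR99021, in place of 2089 and 1930. No call named above was lost under this pairing and those of Chga and Fabp2 were gained. Centring arrays on their median gave 1129 and 1155, and Cy5 alone 657 and 798. Setting the VPA ratio against 0 gave 7022. That setting leaves the control arrays out of the difference, but they still enter the estimate of the spread. With only the groups compared, VPA added to CHIR99021 gave 289. Leaving out 1 array gave 120 to 2485 calls for VPA against control, 287 to 2057 for VPA added to CHIR99021, and 0 to 1 for the difference between them, the single call coming without the VPA array of line 2. An arm left with 1 array was assumed to vary like the other groups. Under the other settings run the counts were within 1.5 times, but the genes called differed. For VPA against control, Agilent's log ratio kept 59.9% of the calls and the fit of only the groups compared 65.6%. Of the 172 called genes named in the text, 118 did not pass with Cy5 alone, 51 with Agilent's ratio and 39 with median centring.

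None of the 172 called genes named changed sign in any setting. Genes that did not pass did so in some. Cdh17 read -0.075 with Agilent's ratio, -0.036 with Cy5 alone and -0.24 against 0. Reg3b read -0.020 with Cy5 alone. Set against 0, Epcam read -0.42 and passed as lower (adjusted p = 0.0056 from limma), and Hdac2 read -0.33 and did not pass. Among uncalled genes, leaving out 1 array gave Alpi values of -0.35 to 0.58, Bex4 -0.19 to 4.43, Cdh17 -0.076 to 0.12, Cdkn1a -0.24 to 1.10, Egln3 -0.054 to 2.19, Epcam -0.026 to 0.056, Ero1a -0.998 to 1.80, Hdac2 -0.16 to 0.45, Lgr5 -0.64 to 0.12, Lyz1 -1.09 to 0.049, Mki67 -0.42 to 0.28, Otc -0.32 to 0.78 and Reg3b -1.26 to 2.22. The causes were not tested. The medians of the mitochondrial, peroxisomal, lipid droplet, lysosome, goblet, Paneth and tuft cell lists kept their sign in all 21 settings. The medians of the G1/S and G2/M lists did so too, but the counts of calls did not hold. Without either control array, rises fell from 11 to 0 in the mitochondrial list, from 10 to 0 in the lipid droplet list and from 11 to 0 in the lysosome list, which also had 0 with Cy5 alone, and to 1 or 2 from 11 in the peroxisomal list. Falls went from 11 to 2 in the goblet cell list and from 4 to 0 in the Paneth cell list. Those of the glycolysis and hypoxia, fatty acid synthesis and brush border lists turned without the VPA array of line 1 and that of the sterol list without that of line 2. The neuronal median turned in 7 settings and the fetal-like one in 10. The number of lines, 2, limits the precision of every value.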

Other observations

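Some gene families stood out on reading the full table. They were chosen after their values were seen, so that their counts are descriptions with no test. The first is the machinery of the primary cilium, a sensory antenna of microtubules that is built by intraflagellar transport. Of 29 genes of intraflagellar transport and its motors, 15 rose with VPA and 0 fell by limma, against 6.57% and 4.27% of all genes, and 27 had positive values (median 0.66). Ttc26, a protein of the particle that carries cargo to the tip, read 1.45 and 1.53 with VPA, against control ratios near 0, and rose by 1.44 ± 0.09. Ift122 and Wdr35, which belong to the particle of the return path, rose by 1.40 ± 0.09 and 1.23 ± 0.10 (second Wdr35 probe 0.23), and the motor subunit Kif3a read -0.15 and -0.13 in control and 0.99 and 1.12 with VPA and rose by 1.20 ± 0.09. Members of both directions of transport were thus among the rises, but not every member passed. The motor subunits Dync2h1 and Dync2li1 read 0.01 ± 0.11 and 0.66 ± 0.57. Ift140 read 0.04 ± 0.17 and Ift172 -0.56 ± 0.15, and none of these passed. With CHIR99021 present, 11 of the 29 rose and 1 fell (median 0.54).

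Of 14 genes of the ciliary transition zone, the gate at the base of the cilium, 5 rose and 2 fell (median 0.33). B9d2 rose by 1.43 ± 0.13, while Tmem17 and Cc2d2a fell by 0.83 ± 0.17 and 0.61 ± 0.09. Of 10 genes of the BBSome, the coat that moves membrane cargo in cilia, and its recruiting GTPase, 2 rose and 0 fell (median 0.36), and that GTPase, Arl6, rose by 1.88 ± 0.42.

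Calcium-dependent membrane binding proteins held rises too. Of 7 copines 3 rose and 0 fell, with Cpne2 at 1.91 ± 0.35 and Cpne7 at 1.62 ± 0.18 beside Cpne5. Of 12 annexins 3 rose and 0 fell, with Anxa6 at 1.28 ± 0.08 beside Anxa1 and Anxa5. With CHIR99021 present 3 copines rose and 0 fell, while 2 annexins rose and 2 fell. Anxa1 and Anxa5 read 0.29 and 1.18 there and did not pass. Of 12 acyl-CoA thioesterases, which split fatty acids from coenzyme A, 4 rose and 0 fell (median 0.75). Their median with CHIR99021 was 0.25, with 1 rise and 0 falls. The difference was not tested for the family.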
